A study of Mus musculus with 15 samples.

Results

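Accessible chromatin gained moderately under 3 treatments was described in mouse embryonic fibroblasts (MEFs), connective tissue cells grown from embryos. Peaks were chosen on group levels in CPM (counts per mega reads in peaks), which are the summed counts of a group over its summed library totals. A peak was kept where early Fra2 over early control, late Fra2 over late control and Ezh2 inhibitor over early control were each at least 1.4, where at least 1 Fra2 ratio was below 2, and where the inhibitor level was at least 3 CPM. These conditions held for 2530 of 206367 consensus peaks (1.23%), which are called members here. Because the measured values of all 15 libraries chose the members, their height in these 3 comparisons is a description and was not tested.

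Accessibility was measured by Omni-ATAC-seq, which cuts and tags accessible DNA with a transposase, in MEFs labelled as C57/B16 background. The early and late Fra2 groups carried a CRISPR activation construct (CRISPRa-VPR with an mCherry reporter) and Fra2 guide RNAs, and the early and late control groups carried the same construct with scrambled guides. The labels put the early groups at day 3 (day 4 for early control 3) and the late groups at day 10 after lentiviral infection, the series text at days 4 and 11. The inhibitor libraries are labelled day 4. Sorting of the 4 transduced groups had kept cells positive for mCherry and for THY1, a fibroblast surface marker. The Ezh2 inhibitor group had received GSK343 at 4 µM for 3 days followed by a washout day, and its control here is the early scrambled group. The labels state neither transduction nor sorting for the inhibitor cells, so the inhibitor and these differences of handling cannot be told apart. Each group holds 3 libraries.

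Fra2, the product of Fosl2, is a subunit of the dimeric transcription factor AP-1. AP-1 binds best to TGA(C/G)TCA, much of it at enhancers far from start sites, and fibroblasts use it in growth, wounding and matrix programmes. The wider form TGANTCA, with any central base, was searched here and is called the AP-1 element. Ezh2 is the methyltransferase of Polycomb repressive complex PRC2, which marks histones at silent developmental genes, and GSK343 blocks its activity.

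Promoters under members are shown because the sequence was not used in the choice and holds the AP-1 element in some of them. In the RefSeq promoter table of GRCm38.p6, equal to mm10, 17 windows of 16 genes overlapped a member by at least 150 bases. Each window holds 250 bases before and 50 after a start site. The 250 upstream bases of 3 of them are given 5′ to 3′ on the strand of the gene, with the AP-1 element in capitals. They are chr6:30568119-30568368 (plus strand), chr11:46454681-46454930 (plus strand) and chr19:11314455-11314704 (minus strand).
Cpa4: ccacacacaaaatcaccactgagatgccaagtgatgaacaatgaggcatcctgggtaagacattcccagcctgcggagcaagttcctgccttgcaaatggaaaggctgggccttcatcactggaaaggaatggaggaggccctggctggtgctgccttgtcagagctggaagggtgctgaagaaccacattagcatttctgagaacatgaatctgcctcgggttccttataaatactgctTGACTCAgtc
Havcr2: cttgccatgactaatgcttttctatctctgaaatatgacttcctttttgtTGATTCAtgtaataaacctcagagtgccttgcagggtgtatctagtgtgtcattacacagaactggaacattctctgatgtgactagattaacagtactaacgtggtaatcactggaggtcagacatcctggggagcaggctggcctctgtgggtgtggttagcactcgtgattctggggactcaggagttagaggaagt
Ms4a14: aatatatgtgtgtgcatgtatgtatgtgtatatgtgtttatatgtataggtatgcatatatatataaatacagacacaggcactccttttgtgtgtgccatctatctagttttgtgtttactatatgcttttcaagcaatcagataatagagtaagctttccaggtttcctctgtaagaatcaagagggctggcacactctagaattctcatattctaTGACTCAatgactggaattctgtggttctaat

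The first base of the element lies at position -10 from the start site of Cpa4, a carboxypeptidase gene, at -200 for Havcr2, which encodes the immune receptor TIM-3, and at -32 for Ms4a14, of a family of membrane proteins. TGANTCA, a palindrome but for its central base and searched on both strands, stood in 7 of the 17 windows under members (41.2%). It stood in 978 of 13634 windows under any consensus peak (7.17%) and in 2565 of all 32851 windows in the table (7.81%). The windows under members were poorer in G and C, with a median of 45.3% against 61.3% under any peak. Among the 5917 windows under any peak with a GC content in the members' range of 37.7 to 59.7%, the element stood in 711 (12%). The median GC content of those windows was 53.7%, still above that under members, so GC was matched only in part. The other windows with it belonged to Gm52636, Gm31486, Gm36043 and Klra2. In the upstream bases its central base was C at Cpa4, Ms4a14 and Gm36043, T at Havcr2 and Gm31486, and A at Gm52636. The match of Klra2 was not wholly within its upstream bases. Shares for a central C or G alone were not computed.

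Other elements searched on both strands did not all show the same order. The RUNX element TGTGGT stood in 9 of the 17 windows (52.9%) and in 16.6% of those of the same GC range. The TEAD element GGAATG stood in 3 (17.6%, against 17.4%). The CRE element TGACGTCA was in 0 of the 17 and in 2.96% of the GC range. With 17 windows these shares are coarse, they were not tested, and a match is a description of letters and not of binding. The sequences of the other members were not analysed here.

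The member over the Cpa4 start site (chr6:30568039-30568540) had 17.5, 19.1 and 14.8 CPM in early Fra2, 19, 18 and 18.1 CPM in late Fra2, and 13.6, 13.4 and 13.5 CPM in Ezh2 inhibitor libraries. It had 10.5, 9.38 and 6.52 CPM in early control and 11.7, 13.5 and 13.6 CPM in late control libraries. No treated library overlapped its controls in the Fra2 or inhibitor comparison here. The member at Havcr2 (chr11:46454475-46454976) had 14.7, 13 and 14.3 CPM in early Fra2 against 7.01, 4.65 and 4.59 CPM in early control libraries, and 15, 14.8 and 12 CPM in late Fra2 against 9.8, 9.89 and 8.6 CPM in late control libraries. Its inhibitor libraries had 9.5, 8.23 and 7.51 CPM, above every early control library and below every early Fra2 library. The member at Ms4a14 (chr19:11314185-11314686) lay lower, at 5.38 ± 1 CPM in early Fra2, 6.21 ± 0.165 in late Fra2, 5.28 ± 0.46 in inhibitor, 3.55 ± 0.636 in early control and 4.16 ± 0.284 in late control libraries (SD, n = 3 each).

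Reads in peaks came to between 6.75 and 25.3 M (mega) per library, and 3 counts were worth 0.119 to 0.444 CPM. Early control 3 was the shallowest library and stood apart on the second principal component, with a lowest correlation of 0.782 to a library of its group. All 8 fibroblast markers had a peak at a gene end, whose levels summed to 88 CPM in early Fra2, 70.5 in late Fra2, 78.3 in Ezh2 inhibitor, 96.9 in early control and 89.7 in late control. Summed markers of other cell types lay lower, from 6.55 CPM for muscle to 33.3 CPM for neuronal markers, both in late control. These sums cover fewer genes, 3 endothelial, 4 epithelial and 2 each macrophage, muscle and neuronal, so they do not rank cell types. In late control the neuronal genes Syt1 and Tubb3 had 16.8 and 16.5 CPM. Single fibroblast genes there ranged from 2.61 CPM (Prrx1) to 19.3 CPM (Pdgfrb). The part of other cell types in the results was not tested. Without early control 3 the rule chose 2905 peaks, of which 2174 were among the 2530. Without early control 1 it chose 3019, with 1907 of the 2530, and without early control 2 it chose 2539, with 1926 of them. No label names separate cultures, so the spread behind each p-value may be technical.

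Members lay below the median of all peaks in early control and above it in the treated groups. Their median level was 5.09 CPM in early Fra2, 5.46 in late Fra2, 4.31 in Ezh2 inhibitor, 2.69 in early control and 3.26 in late control. Over all peaks the medians were 3.28 CPM in early Fra2, 3.37 in late Fra2, 3.36 in Ezh2 inhibitor, 3.17 in early control and 3.09 in late control. The library medians of members were 5.08, 5.05 and 5.08 CPM in early Fra2, 5.6, 5.64 and 5.29 in late Fra2, 4.42, 4.26 and 4.35 in Ezh2 inhibitor, 2.68, 2.65 and 2.96 in early control, and 3.47, 3.24 and 3.12 in late control libraries. Every treated library median was above every control library median. The choice of members sets this against each group's own control. Late control was at or above Ezh2 inhibitor in 230 members (9.09%). Members took up between 1.45 and 1.47% of reads in early Fra2, 1.49 to 1.59% in late Fra2 and 1.22 to 1.25% in Ezh2 inhibitor libraries, against 0.743 to 0.805% in early control and 0.887 to 0.988% in late control libraries.

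**Figure D1:**
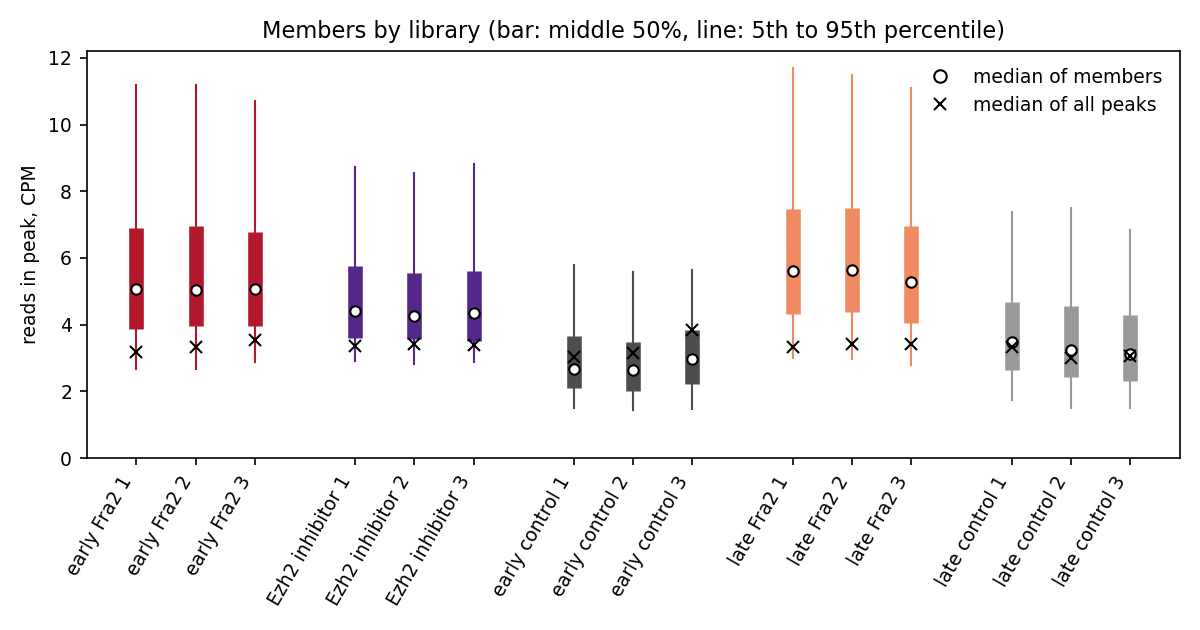
Level of the 2530 members in each library, in CPM on the vertical axis; circles mark the median, thick bars the interquartile range, thin lines the range between the outer 5% on each side, and crosses the median of all peaks. Member medians lie at 5.05 CPM or more in the Fra2 libraries, at 4.26 to 4.42 CPM in the Ezh2 inhibitor libraries and at 2.65 to 3.47 CPM in the control libraries.

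The authors' own peak lists, called per library, show the same peaks from the side of detection. A summit called by the authors lay in 95 to 99.8% of members in each of the 9 treated libraries. In early controls 1, 2 and 3 it was 90.8%, 63.6% and 12.8% of members, and in late controls 1, 2 and 3 it was 72%, 89.3% and 87.5%. The list of early control 3 was the shortest, with 114359 peaks, and held a summit in 32.3% of all consensus peaks. All 3 libraries of a group held a summit in 93.6% of members for early Fra2, 98.7% for late Fra2 and 99.2% for Ezh2 inhibitor, against 11.1% for early control and 66.8% for late control. Over all peaks these shares were 55.2% for early Fra2, 73% for late Fra2, 75.8% for Ezh2 inhibitor, 28.7% for early control and 51.8% for late control. In 6.52% of members no early control library held a summit (16.1% of all peaks), and in 4.35% no late control library did (15.3% of all peaks). The summits come from the libraries whose values chose the members, so they are no independent readout.

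The 3 ratios that chose the members differed in size. The ratio of early Fra2 over early control had a median of 1.8 and reached 5.36. Late Fra2 over late control had a median of 1.65 and reached 3.54, and Ezh2 inhibitor over early control had a median of 1.58 and reached 2.87. The early Fra2 ratio was the largest of the 3 in 1447 members (57.2%), the late Fra2 ratio in 683 (27%) and the inhibitor ratio in 400 (15.8%). The inhibitor ratio was the smallest in 1259 (49.8%). In 1452 members (57.4%) all 3 ratios were below 2, and in 168 (6.64%) the inhibitor ratio was at least 2.

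**Figure D2:**
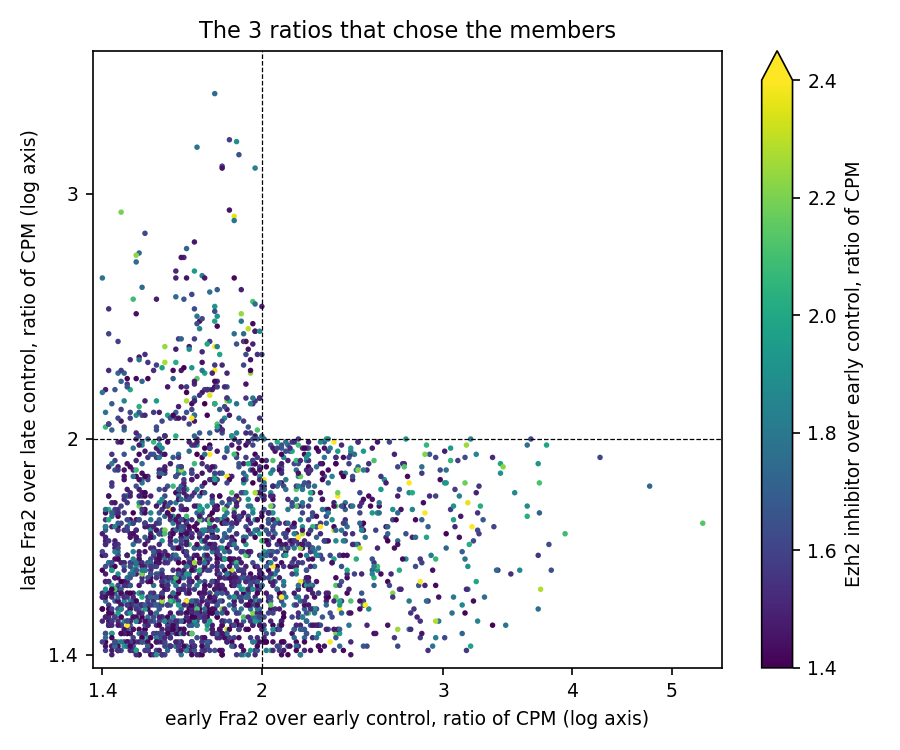
Ratio of CPM of early Fra2 over early control (horizontal) and of late Fra2 over late control (vertical), both on log axes, for each of the 2530 members; colour gives the ratio of Ezh2 inhibitor over early control and dashed lines mark a ratio of 2. The empty upper right corner and the lower limit of 1.4 on both axes come from the rule; 760 members lie right of the vertical line and 249 above the horizontal one.

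Many members sat close to the limits of the rule. The smallest of the 3 ratios was under 1.45 in 730 members (28.9%) and at least 1.6 in 576 (22.8%), while 1077 other peaks with at least 3 CPM had a smallest ratio between 1.35 and 1.4. At the inhibitor limit, a member near Lrrc3b stood just inside at 1.40004 and a peak near Utrn just outside at 1.3998. At the early Fra2 limit these were Pask at 1.40113 and Mast4 at 1.39987, at the late Fra2 limit Mib1 at 1.40016 and Atg10 at 1.39999. At the upper limit, where the smaller Fra2 ratio is read, Cryba4 stood inside at 1.99764 and Rgl1 outside at 2.00044, and at the level limit Cdh5 stood inside at 3.00052 CPM and Frzb outside at 2.9861 CPM. The upper limit left out 354 peaks and the level limit 3551.

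Calls on single members were most frequent in early Fra2 and least frequent with the inhibitor. With edgeR, a quasi-likelihood fit of counts over 206349 tested peaks, all 2530 members passed the filter on low counts. At an adjusted p under 0.05, 2014 members (79.6%) were called higher in early Fra2 than in early control, where 10.1% of all peaks were, and 1738 (68.7%) in late Fra2 than in late control, where 6.44% were. In Ezh2 inhibitor against early control 474 members (18.7%) were called higher, where 0.552% of all peaks were. In all 3 comparisons at once 353 members (14%) were called, against 0.234% of all peaks. Leaving out 1 library gave 88 (without Ezh2 inhibitor 3) to 854 (without early control 3) members called with the inhibitor, among them 94 without early control 2, 95 without Ezh2 inhibitor 1 and 131 without Ezh2 inhibitor 2. In late Fra2 it gave 925 without late control 3, 976 without late Fra2 1, 1061 without late Fra2 2 and 1145 without late control 2. Of all peaks 4.92% were called lower in early Fra2, 3.54% in late Fra2 and 0.341% in Ezh2 inhibitor, each against its control. The rule used these contrasts, so nothing is read from these counts.

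By library values, all 3 early Fra2 libraries stood above all 3 early controls in 2078 members (82.1%, and 15.1% of all peaks). All 3 late Fra2 libraries stood above all 3 late controls in 2288 members (90.4%, and 18.9% of all peaks), and all 3 inhibitor libraries above all 3 early controls in 1989 (78.6%, and 11.9%). In 1631 members (64.5%, and 2.88% of all peaks) the groups did not overlap in any of the 3 comparisons. These counts follow from the rule in the same way. Both early Fra2 and Ezh2 inhibitor share the early control libraries, so their values are given side by side and not correlated. The median log2 fold change of members was 0.84 in early Fra2 against early control, 0.67 in late Fra2 against late control and 0.61 in Ezh2 inhibitor against early control, and that of all peaks was -0.03, -0.01 and 0.00.

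In late controls, which carried scrambled guides, members lay above early controls more often than peaks as a whole. The median log2 difference of late control minus early control was 0.27 over members and -0.01 over all peaks, and it was above 0 in 1961 members (77.5%) and in 48.8% of all peaks. With edgeR 242 members (9.57%) were called higher in late control at an adjusted p under 0.05, where 2.04% of all peaks were, and 6 were called lower, where 1.23% were. All 3 late controls stood above all 3 early controls in 620 members (24.5%, and 8.94% of all peaks). The rule asks for a low early control level and a late control level that is low beside late Fra2, so this contrast is not independent of the choice. Counted in both directions, the 248 calls fell to 98 without late control 2 and to 128 without early control 2. Split by the Fra2 ratios, whose denominators are these controls so that the split itself sets an order, the 760 with an early ratio of at least 2 and a late ratio below 2 had a median of 0.52, the 1521 with both below 2 had 0.23, and the 249 with a late ratio of at least 2 and an early ratio below 2 had -0.18.

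Of the 5 members with the largest late minus early control difference, 4 were nearest Gpr158, Clic6, Alox12e and Casp14, and 1 on chromosome 13 had no gene within 100 kb. The one near Casp14, a caspase gene of cornifying skin, had 9.35, 9.89 and 8.13 CPM in late control and 3.61, 3.8 and 3.7 CPM in early control libraries, a log2 difference of 1.32 ± 0.18 (SE; edgeR adjusted p = 5.28e-06). Its late Fra2 libraries had 15.2, 16.2 and 14.6 CPM, its early Fra2 libraries 14.4, 14.8 and 12.7, and its Ezh2 inhibitor libraries 6.2, 5.55 and 6.21. Late control thus lay between early control and the Fra2 groups there, without overlap. Near Gpr158, an orphan receptor gene, late control libraries had 4.75, 4.92 and 4.71 CPM and early control libraries 1.19, 2.29 and 1.93 CPM, a log2 difference of 1.49 ± 0.24 (edgeR adjusted p = 0.000107). These members were picked for this same difference, and the rule used both controls, so the p-values are descriptions and support nothing.

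In the remaining members the difference was not above 0. Of the 5 members with the lowest late minus early control difference, 4 had no gene within 100 kb and 1 lay in Pard6g, a cell polarity gene, where the difference of -1.0 ± 0.33 did not pass the test (edgeR adjusted p = 0.0717). A member on chromosome 8 (chr8:97094288-97094789), with no gene within 100 kb, had 1.58, 1.39 and 1.24 CPM in late control and 3.15, 3.08 and 2.22 CPM in early control libraries, a log2 difference of -1.05 ± 0.25 (edgeR adjusted p = 0.0113). Its late Fra2 libraries had 4.06, 3.91 and 3.49 CPM, above every late control library and overlapping the inhibitor libraries at 4.5, 4.63 and 3.92 CPM. Members at this end were likewise picked for the late minus early control difference, so its p-values support nothing here.

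Between the Fra2 times, few members were called. Late Fra2 was called higher than early Fra2 in 26 members (1.03%), where 0.393% of all peaks were, and lower in 23 (0.909%), where 1.09% were. The median log2 difference was 0.08 over members and 0.00 over all peaks. The difference of the Fra2 effects, late minus early, had a median of -0.17 over members and -0.01 over all peaks, and it was called lower in 14 members (0.553%, and 0.0819% of all peaks) and higher in 0 (0.0116% of all peaks). At an unadjusted p under 0.05 it differed in 358 members (14.2%) in either direction, and in 9.57% of all peaks, and DESeq2 called 28 lower and 0 higher. The 14 calls came to between 1 (without late Fra2 3) and 35 (without early control 3) when 1 library was left out, and the 49 calls of late Fra2 against early Fra2 to between 18 (without early Fra2 1) and 106 (without early control 3). Early Fra2 against Ezh2 inhibitor was called higher in 445 members (17.6%), where 9.02% of all peaks were, and lower in 3 (0.119%), where 5.2% were, with a median log2 difference of 0.22 over members and -0.01 over all peaks. Without early Fra2 1 these 448 calls became 296. The groups of these contrasts also entered the rule.

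Members were rare at gene ends. By the RefSeq table of protein-coding genes, which gives no strand, 53 members (2.09%, Wilson 95% interval 1.61 to 2.73%) had their centre within 1 kb of either end of a gene, against 13% of all peaks. In all peaks with an early control level between 1.75 and 5.46 CPM, which spans most members, the share was 8.38%, and in the 354 peaks with both Fra2 ratios at least 2 it was 1.41%. Members lay in gene bodies in 50.2% and outside genes in 47.7%, against 47.5% and 39.6% of all peaks. Position is not a value of the rule. The shares stand side by side without a test, and the interval covers counting error only.

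Start sites lay farther from members than from peaks as a whole. By the promoter table, the median distance to the nearest start site was 36.7 kb for members, 36.3 kb for peaks with both Fra2 ratios at least 2, 21.3 kb for peaks of the same early control range and 19.9 kb for all peaks. Within 1 kb of a start site lay 42 of the 2416 members with a start site on their chromosome in the table (1.74%), against 12.3% of all peaks and 7.56% of those in the same range. Farther than 100 kb lay 24.4% of members and 15.7% of all peaks. For 490 members no protein-coding gene lay within 100 kb.

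**Figure D3:**
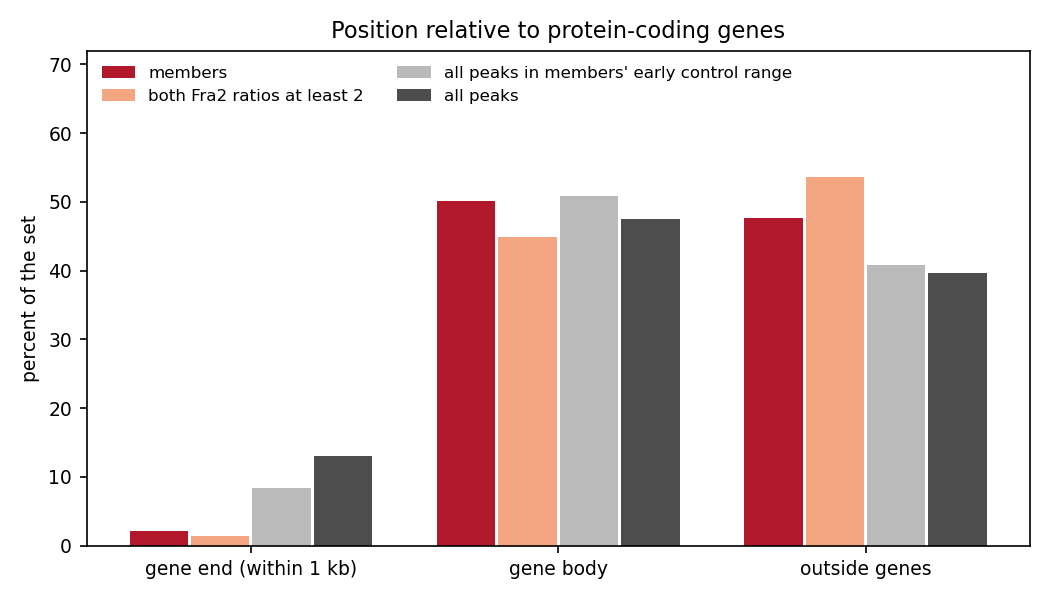
Share of each set, in percent, whose peak centre lies within 1 kb of either end of a protein-coding gene, in a gene body or outside genes. Bars from left to right in each place are members, peaks with both Fra2 ratios at least 2, all peaks in the early control range of members, and all peaks; at gene ends they stand at 2.09%, 1.41%, 8.38% and 13%.

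Members were scattered, with a few dense runs. The median distance from a member to the nearest other member was 297 kb, 2133 stood with no other member within 50 kb, and 397 fell into 182 runs with gaps of at most 50 kb. They belonged to 1686 nearest genes, of which 1418 had 1 member, 212 had 2, 44 had 3 and 12 had at least 4. Runs at Csf1, Tnc and Tpm1 held 11, 7 and 6 members. Csf1 encodes the growth factor of macrophages, Tnc the matrix glycoprotein tenascin C, and Tpm1 a tropomyosin of actin filaments. Neighbouring peaks of a run share their surroundings and are not replicates.

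At Csf1, 11 of the 20 consensus peaks between 107729352 and 107743619 on chromosome 3 (mm10) were members, with 9 of them outside the gene, 1 at its end and 1 in its body. The gene runs on the minus strand from 107741048 to 107760469, so most of the run lies past its 3′ end. Summed over the 11 members, libraries had 48.8, 67.3 and 71 CPM in early Fra2, 79, 80.3 and 90.2 in late Fra2, 69, 72.1 and 66.4 in Ezh2 inhibitor, 29.8, 30.9 and 38.1 in early control and 46.3, 52 and 46.1 in late control. The inhibitor libraries overlapped the early Fra2 libraries, and every treated library was above its controls. The inhibitor ratio was the largest of the 3 in 9 of the 11 members.

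The member with the largest inhibitor ratio of the Csf1 run, 2.78, lies at chr3:107734697-107735198. It had 10, 7.54 and 8.03 CPM in Ezh2 inhibitor libraries, 5.82, 7.5 and 8.39 CPM in early Fra2 libraries and 2.73, 3.44 and 3.26 CPM in early control libraries. Late Fra2 libraries had 10.9, 10.3 and 10.5 CPM against 5.96, 6.36 and 6.01 CPM in late control libraries. Late control was above early control there by a log2 difference of 1.0 ± 0.19 (SE; edgeR adjusted p = 0.00124). Peaks between the members did not all follow: at 3.95 kb from the first peak of the run a higher peak had 14.6 CPM in early Fra2, 16.7 in Ezh2 inhibitor and 12.7 in early control, ratios of 1.15 in early Fra2 and 1.32 in Ezh2 inhibitor. Over all 53 peaks nearest Csf1, the 11 members included, 16 were called higher in early Fra2, 17 in late Fra2 and 13 in Ezh2 inhibitor. Of all peaks 10.1%, 6.44% and 0.552% were called higher in these comparisons. The rule made the members high, so nothing is read from these counts.

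**Figure D4:**
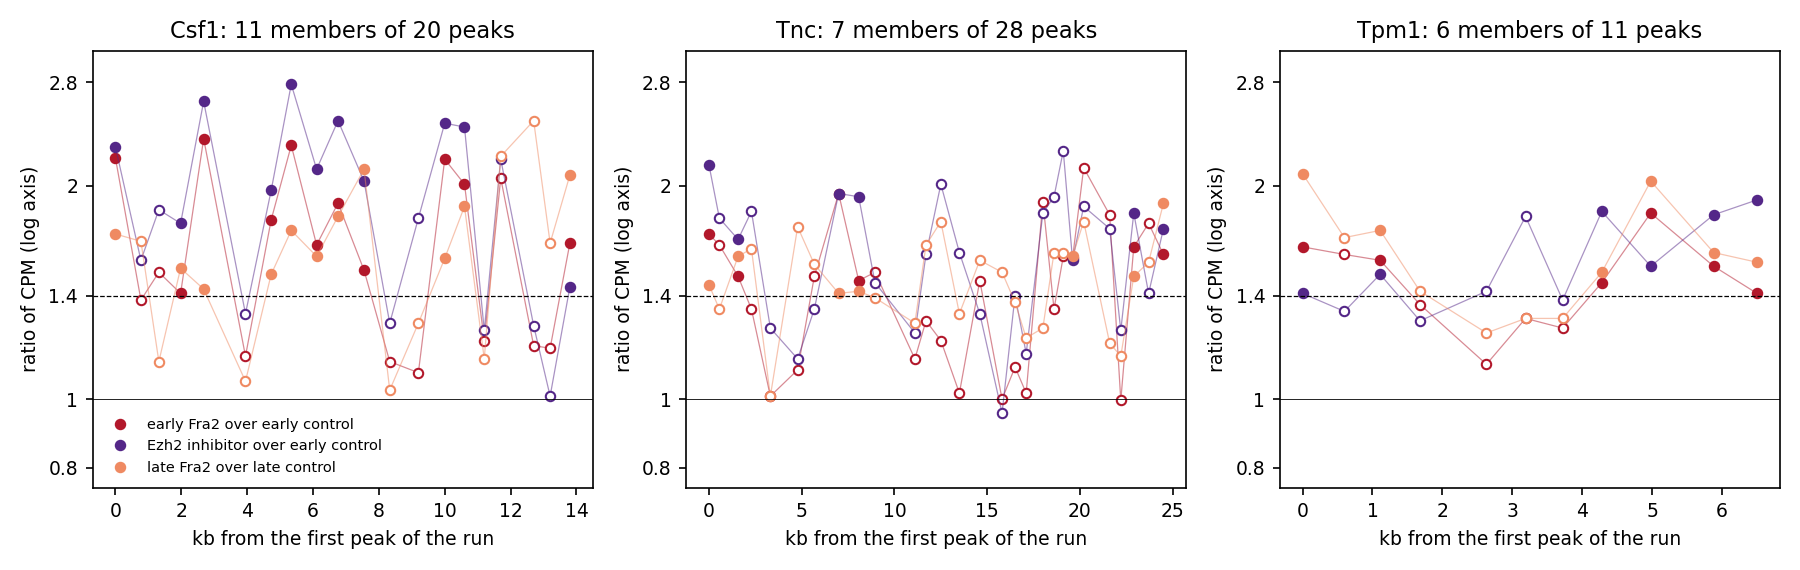
Ratios of CPM (log axis) at all consensus peaks of the runs at Csf1, Tnc and Tpm1, by distance in kb from the first peak; filled points are members and open points are other peaks, in the colours of early Fra2, Ezh2 inhibitor and late Fra2, each over its control. The dashed line marks 1.4; the open points between members include peaks below it in at least 1 ratio and peaks above it in all 3 that the upper limit or the level limit left out, and the ratios at Csf1 reach 2.78.

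At Tnc, 7 of 28 consensus peaks over 25 kb were members, from past the 3′ end into the gene body (chromosome 4, 63955289 to 63980296, minus strand gene from 63959785). Their summed level was 23.5, 25.7 and 29.7 CPM in early Fra2, 34.2, 33.1 and 31.4 in late Fra2, 29.1, 26.9 and 31 in Ezh2 inhibitor, 15.5, 14.6 and 19.9 in early control and 24.4, 20.9 and 19.7 in late control libraries. No treated library overlapped its own controls. Over all 107 peaks nearest Tnc, the 7 members included, 22 were called higher in early Fra2, 9 in late Fra2 and 8 in Ezh2 inhibitor. Of all peaks 10.1%, 6.44% and 0.552% were called higher in these comparisons. Nothing is read from these counts either.

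At Tpm1, 6 of 11 consensus peaks over 7 kb were members (chromosome 9, 67018320 to 67025321), around the 3′ end of a gene that runs on the minus strand from 67022590 to 67049672. They summed to 42, 47.8 and 45.3 CPM in early Fra2, 58.5, 63 and 58.3 in late Fra2, 43.8, 46.1 and 51.1 in Ezh2 inhibitor, 28, 27.8 and 30.7 in early control and 29.3, 37.6 and 36.6 in late control libraries. No treated library overlapped its own controls, while inhibitor and early Fra2 libraries overlapped. The highest of them (chr9:67019430-67019931) averaged 14.2 ± 0.815 CPM in early Fra2, 17 ± 0.753 in late Fra2, 13.4 ± 0.653 in Ezh2 inhibitor, 8.71 ± 0.87 in early control and 9.61 ± 1.75 in late control libraries (SD, n = 3 each). Over all 68 peaks nearest Tpm1, the 6 members included, calls went both ways. In early Fra2 10 were called higher and 3 lower, where 10.1% and 4.92% of all peaks were. In late Fra2 23 were called higher and 3 lower, where 6.44% and 3.54% were. In Ezh2 inhibitor 4 were called higher and 2 lower, where 0.552% and 0.341% were. The rule made the members high, so nothing is read from these counts.

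**Figure D5:**
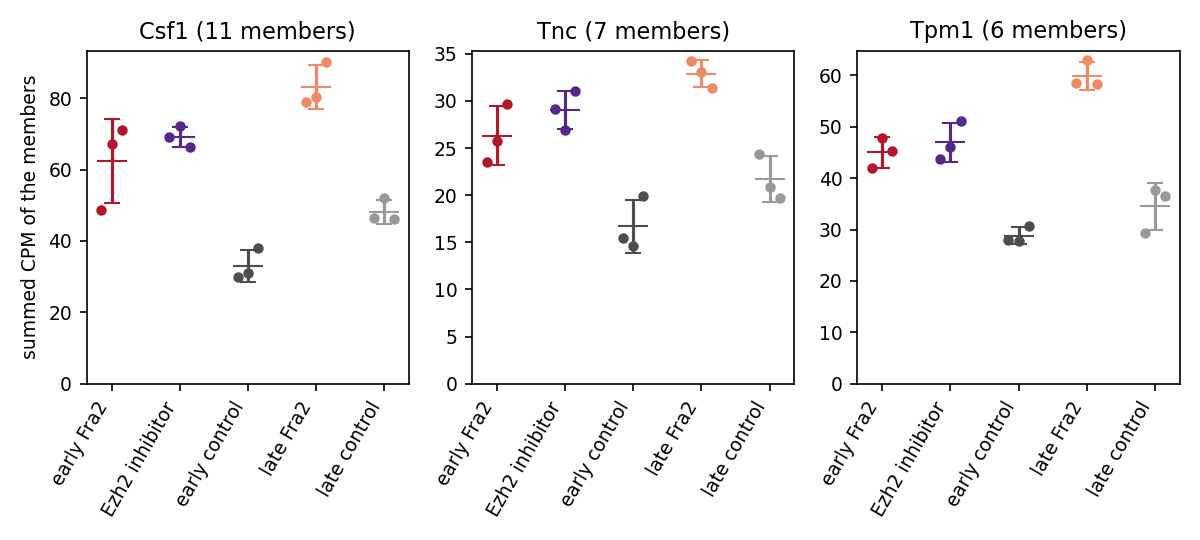
Summed CPM of the members at Csf1, Tnc and Tpm1 in each library (points), with the mean and SD of each group (n = 3); groups from left to right are early Fra2, Ezh2 inhibitor, early control, late Fra2 and late control. The treated groups lie above their controls at each gene, as the rule requires.

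Other genes with many members, each with 5, had them spread over 212 to 477 kb. They were Dok5, an adaptor of receptor tyrosine kinases, Pard3, a cell polarity scaffold, Ube2e2, a ubiquitin-conjugating enzyme, Tbc1d32, a cilium gene, and Thsd7b. At Tbc1d32 5 of 16 nearest peaks were members (31.2%), and 1 of them (chr10:56061313-56061814) held 19.5, 22.7 and 15.6 CPM in early Fra2 against 5.11, 4.73 and 2.37 CPM in early control, and 11.3, 11.7 and 11.6 CPM in late Fra2 against 5.65, 5.44 and 6.72 CPM in late control libraries. Its inhibitor libraries had 7.18, 7.49 and 7.04 CPM. Early Fra2 exceeded the inhibitor there by a log2 difference of 1.45 ± 0.16 (SE; edgeR adjusted p = 1.08e-09).

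Gene groups are given by how many of their nearest peaks were members, beside 1.23% of all peaks, with no test. A peak counts for its nearest gene up to 100 kb away, so a member at a gene need not lie in it. Matrix genes had 19 members among 1508 peaks (1.26%), in Tnc, Ltbp1, Col5a2, Col15a1, Col4a1, Col6a3, Dcn, Fbn2, Lama4 and Loxl3. AP-1 target and wound genes had 15 among 777 (1.93%), among them 7 at Tnc and others at Ptgs2 and Vegfa. Myofibroblast and contractile genes had 15 among 1169 (1.28%), among them 6 at Tpm1 and 2 each at Pdlim5 and Smtn. YAP and TEAD genes had 10 among 971 (1.03%), TGF-beta and BMP signalling genes 9 among 842 (1.07%) and fibroblast identity genes 5 among 1019 (0.491%). The highest of these shares, at AP-1 target and wound genes, included the run at Tnc.

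Over all 777 peaks of the AP-1 target and wound genes, members or not, 86 (11.1%) were called higher and 24 (3.09%) lower in early Fra2, near the 10.1% and 4.92% of all peaks. In late Fra2 67 (8.62%) were called higher and 9 (1.16%) lower, where 6.44% and 3.54% of all peaks were, and in Ezh2 inhibitor 19 (2.45%) higher and 4 (0.515%) lower, where 0.552% and 0.341% were. Their median log2 fold change was 0.06, 0.13 and 0.01 in these comparisons. Of the 1508 peaks of matrix genes, 149 (9.88%) were called higher and 41 (2.72%) lower in early Fra2, 72 (4.77%) higher and 47 (3.12%) lower in late Fra2, and 17 (1.13%) higher and 7 (0.464%) lower in Ezh2 inhibitor. Of the 299 peaks of AP-1 family genes, 16 (5.35%) were called higher and 35 (11.7%) lower in early Fra2, with a median of -0.14.

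Genes bound by Polycomb, whose histone mark Ezh2 makes, held members at about the share of all peaks. Developmental regulators of that group had 12 members among 1042 peaks (1.15%). Their nearest genes included Irx5, En1, Gata6, Otx2, Pax2, Pax3, Sox9, Tbx15 and Tbx4, and the member nearest En1 lay 83.8 kb from it. Over all 1042 peaks, 2 (0.192%) were called higher and 7 (0.672%) lower in Ezh2 inhibitor, with a median log2 fold change of -0.08, and 98 (9.4%) higher and 47 (4.51%) lower in early Fra2. The Hox clusters held 0 members among 310 peaks. In these clusters 5 peaks (1.61%) were called higher and 23 (7.42%) lower in early Fra2, 1 (0.323%) higher and 19 (6.13%) lower in late Fra2, and 0 in either direction with the inhibitor. Subunits of PRC2 and PRC1 had 2 members among 443 peaks (0.451%), both at Jarid2, a PRC2 cofactor. No member had Ezh2 as its nearest gene.

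Of the peaks at markers of other cell types, members were 2 of 238 for endothelial (0.84%), 2 of 120 for epithelial (1.67%), 1 of 116 for macrophage (0.862%), 1 of 89 for muscle (1.12%) and 0 of 185 for neuronal genes, beside 1.23% of all peaks. Adipogenic genes held 0 of 368, senescence and p53 genes 0 of 291, chondrogenic and osteogenic genes 4 of 316 (1.27%) and ribosomal protein genes 1 of 295 (0.339%). The muscle marker peak, 8.03 kb from Acta1, the skeletal actin gene, had 11, 9.24 and 9.86 CPM in early Fra2 against 3.66, 2.08 and 4.44 CPM in early control libraries. It had 10.2, 9.87 and 11 CPM in late Fra2 against 7.69, 6.42 and 6.72 CPM in late control, and 4.59, 3.89 and 5.1 CPM in Ezh2 inhibitor libraries, which overlap early control. Late control exceeded early control by a log2 difference of 1.10 ± 0.20 (edgeR adjusted p = 0.000473).

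The only member among AP-1 family genes lay 3.21 kb from the nearer end of Fosl2, the gene the activator was sent to (chr5:32160800-32161301). Its distance to the nearest start site in the promoter table, that of Gm36732, was 24 kb. This member had 6.79, 5.92 and 8.24 CPM in early Fra2 against 2.99, 4.08 and 3.26 CPM in early control libraries. It had 7.01, 9.01 and 7.47 CPM in late Fra2 against 4.15, 4.17 and 4.48 CPM in late control libraries. Ezh2 inhibitor libraries, whose labels name no guide, had 5.4, 5.04 and 5.06 CPM, above each early control. Early Fra2 exceeded the inhibitor by a log2 difference of 0.47 ± 0.16 (SE; edgeR adjusted p = 0.0442). Accessibility does not measure the Fra2 transcript or protein.

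Members with the highest inhibitor level in the other lists are given next. Near Col4a1, a basement membrane collagen, a member in the gene body averaged 6.1 ± 0.73 CPM in early Fra2, 7.49 ± 0.746 in late Fra2, 6.57 ± 0.37 in Ezh2 inhibitor, 3.47 ± 0.315 in early control and 4.48 ± 0.69 in late control libraries (SD, n = 3 each). Near Bmp6, a bone morphogenetic protein, a member averaged 8.53 ± 0.793 CPM in early Fra2, 10.1 ± 1.27 in late Fra2, 7.5 ± 0.513 in Ezh2 inhibitor, 4.86 ± 0.281 in early control and 7.18 ± 1.74 in late control libraries. Tgfb2, a transforming growth factor beta gene, had a member 45.3 kb away whose early controls spread from 2.07 to 6.29 CPM. Its early Fra2 libraries, from 5.44 to 8.87 CPM, overlapped them. In Jarid2 a member averaged 5.7 ± 0.996 CPM in early Fra2, 6.89 ± 0.21 in late Fra2, 5.25 ± 0.488 in Ezh2 inhibitor, 3.77 ± 0.334 in early control and 4.7 ± 0.637 in late control libraries. En1, Runx1, Pth1r, Grhl2, Cldn5, Fcgr1 and Rpl11 were the nearest genes of the others.

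The 10 members whose smallest ratio was highest were near Zp3r, Thrb, Ttll4, Hgf, Slc45a4, Rnf44, Chchd6 and Ttc27, and 2 had no gene within 100 kb. The member in Zp3r, a gene known from sperm, was also among the 8 with the highest inhibitor level (chr1:130579174-130579675). It had 21.7, 25.4 and 20 CPM in early Fra2 against 8.87, 7.02 and 5.63 CPM in early control libraries, 24.5, 21.5 and 21.1 CPM in late Fra2 against 11, 12 and 11.2 CPM in late control libraries, and 16.4, 14.9 and 16.1 CPM in Ezh2 inhibitor libraries. Its ratios were 2.89 in early Fra2, 1.98 in late Fra2 and 2.06 in Ezh2 inhibitor. The member in Thrb, a thyroid hormone receptor gene, had ratios of 2.07 in early Fra2, 1.99 in late Fra2 and 2.01 in Ezh2 inhibitor, with inhibitor libraries at 6.2, 5.74 and 6.37 CPM and early controls at 2.89, 3.58 and 2.37 CPM.

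Of the 8 members with the highest inhibitor level, from 13.5 to 15.8 CPM, the others were near Ptp4a2, Polr1d, Uvrag, Kpna1 and Cpa4, and 2 had no gene within 100 kb. The one 5.16 kb from Ptp4a2, a tyrosine phosphatase gene, averaged 18.7 ± 2.81 CPM in early Fra2, 18.5 ± 0.466 in late Fra2, 15.7 ± 1.51 in Ezh2 inhibitor, 10.7 ± 0.944 in early control and 11.3 ± 2.26 in late control libraries (SD, n = 3 each). In 7 of these 8 the ratio of inhibitor over early control was between 1.4 and 1.59, and in Zp3r it was 2.06.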

How the data were processed

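Omni-ATAC-seq counts of 15 MEF libraries in 5 groups were used. The authors deposited unnormalized counts for 206367 consensus peaks (206366 are 502 bp wide), a list of the same peaks with a score, used to check positions (all 206367 matched), and 1 peak list per library. Those deposited lists give a fold enrichment (a ratio) and −log10 p and q values as the peak caller wrote them. MACS2 and the build mm10 are named in the submitters' processing notes, without a version. How reads were aligned, shifted, deduplicated and counted is not given in the sources used here, and PCR duplicates or repeats could change single counts. A summit counts for a member where it lies inside it.

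CPM were computed from the counts and the column totals, with no count column left unused. Counts were tested with edgeR 4.0.16 (R 4.3.3) by the quasi-likelihood F-test, with TMM scaling, filterByExpr and 1 mean per group over all 15 libraries. P-values were adjusted by Benjamini-Hochberg over all tested peaks, and a call is an adjusted p under 0.05. Log2 fold changes carry an SE worked back from the test, as the absolute log2 fold change over the square root of F. The script was tested on simulated data. DESeq2 1.42.0, TMM from gene-end peaks, no filter, a replicate block and leaving out each library were alternatives. Genes are the nearest of 21631 protein-coding genes of RefSeq GRCm38.p6 within 100 kb of the peak centre. Figures and tables were made with Python 3.11.15.

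The members and the gene lists were chosen with earlier results of these data known. Members were named by rule: the 10 with the largest smallest ratio, the 8 with the highest inhibitor level, the highest of each list, the genes with the most members, those nearest Fosl2 or Ezh2, the 5 highest and the 5 lowest in late minus early control, and those nearest each limit. Members at start sites were chosen after their values were seen. Some members that these rules name are not reported here. Deviations of same-numbered libraries of different groups had a median correlation of -0.01, so numbers were not used as pairs.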

Additional observations from a re-analysis of the deposited data

Results flagged for a closer look

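In 14 members the effect of Fra2 differed between the times by edgeR's test of the difference itself, and in all 14 the late effect was the smaller one. With 1 library left out the count ran from 1 (without late Fra2 3) to 35 (without early control 3). Late control was called above early control in 11 of them, and all 3 late controls stood above all 3 early controls in 13. A high late control enters the difference that selected these members, and the rule used the same values, so these counts support nothing. Late Fra2 was called below early Fra2 in 4. The largest difference was in Pfkfb3, a glycolysis regulator, where the log2 fold change was 0.74 ± 0.19 in late Fra2 against late control and 2.39 ± 0.22 in early Fra2 against early control, a difference of -1.65 ± 0.30 (SE; edgeR adjusted p = 0.00961). Its late Fra2 level was 5.16 CPM against 2.97 CPM in late control, and its early Fra2 level was 8.29 CPM against 1.55 CPM in early control. Near Clic6, a chloride channel gene, late Fra2 had 8.58 CPM against 5.51 CPM in late control, and early Fra2 had 7.91 CPM against 2.12 CPM in early control. There the late control exceeded the early control by a log2 difference of 1.39 ± 0.22 (edgeR adjusted p = 0.000111). These members were named after their values were seen. Dixon's criterion was not applied to single values in these groups of 3 libraries.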

How the results depend on the processing

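The number of members, 2530 as chosen, was 5986 with library sizes from gene-end peaks, 4997 and 1252 with ratio limits of 1.3 and 1.5, and 4105 and 855 with inhibitor limits of 2 and 5 CPM. Of these 5986 peaks 1922 were among the 2530. Leaving out 1 library at a time gave 2423 to 3019 members, and without early control 3 there were 2905, of which 2174 were among the 2530 (1907 without early control 1, 1926 without early control 2, and 2015 with the mean of library CPM), with 2.17% at gene ends and 10, 10 and 6 members at Csf1, Tnc and Tpm1. That check and the gene-end sizes at these genes (13, 23 and 12 members) were chosen after seeing the data. With gene ends taken as 2 kb, 5.02% of members lay there, against 19% of all peaks.

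Calls in both directions over all peaks came to 30935 in early Fra2, 20603 in late Fra2 and 1843 with the inhibitor, each against its control. Scaling by gene-end peaks, which moved the all-peak median log2 change to 0.18, 0.23 and 0.14 in these comparisons, gave 37328 calls in late Fra2 and 8453 with the inhibitor. It gave 28 members in place of 14 for the difference of the Fra2 effects. DESeq2 gave 28 there and 29 in place of 49 for late Fra2 against early Fra2. Leaving out 1 library at a time gave 19720 to 40321 calls in early Fra2 (lowest without early Fra2 1), 8832 to 33784 in late Fra2 (highest without early control 3, lowest without late control 3) and 220 to 7565 with the inhibitor (highest without early control 3, lowest without Ezh2 inhibitor 3). It gave 98 to 269 members for late control against early control (248 with all libraries, lowest without late control 2). For late Fra2 against early Fra2 it gave 18 to 106 (lowest without early Fra2 1, highest without early control 3). For early Fra2 against Ezh2 inhibitor it gave 296 to 572 (448 with all, lowest without early Fra2 1), and for the difference of the Fra2 effects 1 to 35 (lowest without late Fra2 3, highest without early control 3). The cause was not tested.

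Whether replicate numbers pair these libraries was not settled. Deviations of same-numbered libraries correlated at -0.19 to 0.26, with a median of -0.01. Those of differently numbered libraries correlated at -0.27 to 0.20, with a median of 0.00. Such correlations cannot exclude a pairing in the design. With a replicate block, 2029 members were called in early Fra2, 1708 in late Fra2 and 525 with the inhibitor, and 21 for the difference of the Fra2 effects. Calls over all peaks were then 31247, 20414 and 2043. Early control 3 had the lowest depth, 6.75 M reads.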
